A study of Homo sapiens with 36 samples.

Results

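CTCF sites without cohesin were examined in BEAS-2B (B2B) cells. The members of this set were the B2B CTCF peaks on chromosomes 1 to 22, X and Y with no peak of the cohesin subunit Rad21 within 500 bp. The rule took 37208 of the 61225 CTCF peaks, or 60.8% (95% CI 60.4 to 61.2%). Of the rest, 22235 overlapped a Rad21 peak and 1782 lay within 500 bp of one without overlap. These 24017 peaks are called CTCF sites with Rad21 below. The absence of Rad21 is what the rule used, and it means only that no Rad21 peak passed the threshold of the list.

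Chromatin proteins were measured by chromatin immunoprecipitation followed by sequencing (ChIP-seq) in human lung lines. B2B is an immortalized, non-cancerous line from bronchial epithelium, and A549 is a line from a lung adenocarcinoma. Both were untreated in these samples, and each group differed only in the line and in the antibody. CTCF and Rad21 were used from B2B, and RNA polymerase II (pol II), H3K4me3, H3K27ac, the Mediator subunit Med1, JunB, Jun and JunD were used from both lines. CTCF and Rad21 of A549 were not analysed here. Each list came from 2 replicates that the authors merged before peak calling, so no value below has a replicate error and no test between conditions was possible. The intervals given are Wilson intervals for shares and Newcombe intervals for differences between shares, both at 95%, and they cover counting error only. The interval of a ratio of medians runs from the lower 95% bound of one median over the upper bound of the other to the reverse, with the bounds taken from binomial order statistics.

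CTCF is a zinc finger protein that binds a long, well conserved DNA motif. Cohesin is a ring-shaped complex that extrudes loops of chromatin and is halted by bound CTCF, so that strong CTCF sites usually carry cohesin and anchor loops and domain boundaries. Rad21 is the subunit that closes the ring. The Jun proteins are subunits of the dimeric factor AP-1, which binds a short palindromic motif, mostly at enhancers.

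As a check of the line, H3K4me3, which marks promoters in use, lay within 1 kb of a start site of the epithelial genes KRT8, KRT18, CDH1 and EPCAM in B2B, or 4 of 7 airway markers. The basal cell genes KRT5, KRT14 and TP63 had no such peak. Among 4 markers of other cells, the mesenchymal genes VIM and COL1A1 had one, and the blood gene PTPRC and the endothelial gene PECAM1 had none. The 16 lists held 475211 peaks on the chromosomes used. The A549 lists of H3K27ac, Med1 and pol II and the B2B list of Med1 ended before the last chromosome, so overlaps with other lists were counted on chromosomes 1 to 12, which all lists cover, except where stated.

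The sequences below show what the strongest members held at their summits. All are hg38 reference sequence, written from 5′ to 3′ on the strand that carries the motif. Capitals mark the 12 positions of the CTCF consensus, which reads CC, 3 free bases, AG, 2 free bases and GGC. The first 4 are members with that consensus, and the last is a CTCF site with Rad21 for comparison.

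Member in an intron of HHAT, chr1:210374522-210374573, plus strand: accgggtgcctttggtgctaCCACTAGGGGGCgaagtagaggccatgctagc
Member near RUSC2, chr9:35477434-35477485, minus strand: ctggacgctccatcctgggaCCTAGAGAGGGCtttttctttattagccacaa
Member near TMEM40, chr3:12706629-12706680, plus strand: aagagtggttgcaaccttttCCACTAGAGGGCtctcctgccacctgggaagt
Member inside STARD3NL, chr7:38215874-38215925, plus strand: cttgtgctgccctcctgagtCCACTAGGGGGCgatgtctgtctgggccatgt
Site with Rad21 near RIMS1, chr6:72412376-72412427, plus strand: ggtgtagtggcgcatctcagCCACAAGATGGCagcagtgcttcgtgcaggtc

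The next 2 members had the highest CTCF fold enrichment without the consensus. In the first, capitals mark the 12 central positions of the best match to a CTCF matrix learned from the data. In the second no match was found, so no base is in capitals, and the window is centred on the summit.

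Member near MINAR1, chr15:79596165-79596216, minus strand: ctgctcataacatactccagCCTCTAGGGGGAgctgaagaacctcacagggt
Member at the start of ZNF350, chr19:51986920-51986959, plus strand: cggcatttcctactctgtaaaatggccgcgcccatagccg

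The last 4 show another kind of member, with a strong Jun peak, no CTCF consensus and, in capitals, the AP-1 motif TGANTCA. Not every copy is in capitals, and the PCCA and DBNDD1 sequences each hold a further TGACTCA in lower case. They were chosen by their Jun fold enrichment after the values had been seen.

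Member in an intron of HPSE2, chr10:98460952-98460998, plus strand: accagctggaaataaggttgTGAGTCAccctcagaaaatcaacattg
Member in an intron of NFIB, chr9:14277354-14277400, plus strand: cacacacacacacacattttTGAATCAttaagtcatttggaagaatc
Member in an intron of PCCA, chr13:100392893-100392939, plus strand: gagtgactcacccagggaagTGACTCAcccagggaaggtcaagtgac
Member near DBNDD1, chr16:89995032-89995078, plus strand: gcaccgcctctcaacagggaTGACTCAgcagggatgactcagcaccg

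To ask how strongly CTCF was bound at these sites, the deposited fold enrichment of each CTCF peak was compared between classes. The fold enrichment is the pileup of reads at the summit over the local background of the peak caller. The members had a median fold enrichment of 7.96, with a middle range from 5.58 to 13.1. The sites with Rad21 had a median of 12.3, with a middle range from 6.01 to 24.7. The ratio of the medians was 0.645 (95% CI 0.623 to 0.660). The members therefore spanned nearly the same range as the other sites, up to a fold enrichment of 88.4 against 99.5, but fewer of them were strong.

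The pileup itself separated the classes more than the fold enrichment did. It was solved for each peak from its fold enrichment and p-value, and for all 61225 peaks a whole number of reads fitted within 0.001 on the −log10 p scale. The median pileup was 27 reads at the members and 97 reads at the sites with Rad21. The middle range ran from 17 to 47 reads at the members and from 51 to 161 reads at the others. The highest pileup, 260 reads, was reached by 1 member and 47 sites with Rad21. So many peaks at the same value may mark a ceiling, which would also bound the highest fold enrichment. This was not tested. The local background was lower at the members too, with a median of 1.90 reads against 5.00 reads, so a given fold enrichment stood for fewer reads at a member. Members were also narrower, at a median of 209 bp against 271 bp.

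Sorted into deciles by pileup, the share of CTCF peaks without Rad21 was lower in each stronger one. In the weakest decile, with 8 to 15 reads, 93.6% of 7340 peaks were members. In decile 5, with 32 to 42 reads, the share was 72.4% of 6482 peaks. In the strongest decile, with 165 to 260 reads, it was 6.66% of 6064 peaks, which left 404 members. By fold enrichment the share did not follow one direction, at 44.7% in the lowest decile, 77.7% in decile 3 and 27.5% in the highest.

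The edge of the rule was gradual. The 307 peaks just outside the rule, more than 400 and up to 500 bp from a Rad21 peak, had a median fold enrichment of 5.57 and a median pileup of 32 reads. The 310 peaks just inside it, more than 500 and up to 600 bp away, had 5.97 and 31 reads. Most members lay far from the edge. The median gap from a member to the nearest Rad21 peak was 19254 bp, and 12.3% of the members (95% CI 11.99 to 12.7%) had none within 100 kb. Those 4583 remote members had a median fold enrichment of 8.76, and 27.01% of them held the CTCF consensus, against 14.2% of the 3061 members at 0.5 to 2 kb.

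To ask whether the members carried the sequence that CTCF binds, windows reaching 50 bp to each side of the summits were searched on both strands. The consensus was found at 6853 members, or 18.4% (95% CI 18.03 to 18.8%). It was found at 34.7% of the sites with Rad21 (34.1 to 35.3%), a difference of -16.3 points (95% CI -17.0 to -15.6). Over all CTCF peaks the share was 24.8%. In windows of the same length 2 kb to each side, the consensus was found at 1.02% around the members and 1.15% around the others. The motif lay at the summit in both classes, with a median distance of 12 bp and 11 bp.

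The consensus letters miss many CTCF sites, so a matrix of 20 positions was learned from the sites with Rad21 on even autosomes and scored on the odd autosomes, X and Y. Its threshold was the score that 1% of flanking windows reach. The matrix matched 39.8% of 20140 members (95% CI 39.2 to 40.5%) and 66.8% of 13420 sites with Rad21 (66.0 to 67.6%). A matrix learned from the members instead matched 41.1% and 63.7%. In flanking windows the first matrix matched 0.917% and 1.24%. With a matrix from either class, most members had no match at the summit, so they are described here by the rule and not as motif sites.

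The motif difference followed the pileup. Within deciles of fold enrichment, weighted by the members, the difference in the consensus was -14.9 points. Within deciles of pileup it was 0.576 points, close to 0 and of the opposite sign, a comparison added after the data had been seen. In the weakest decile of pileup the matrix matched 14.4% of the members and 12.2% of the sites with Rad21. In decile 7, with 57 to 78 reads, it matched 62.8% and 57.8%. In the strongest it matched 76.2% of the members and 86.95% of the sites with Rad21. The 2 classes thus crossed along the pileup, and the strongest decile was the only one of the 10 in which they were more than 10 points apart.

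**Figure D1:**
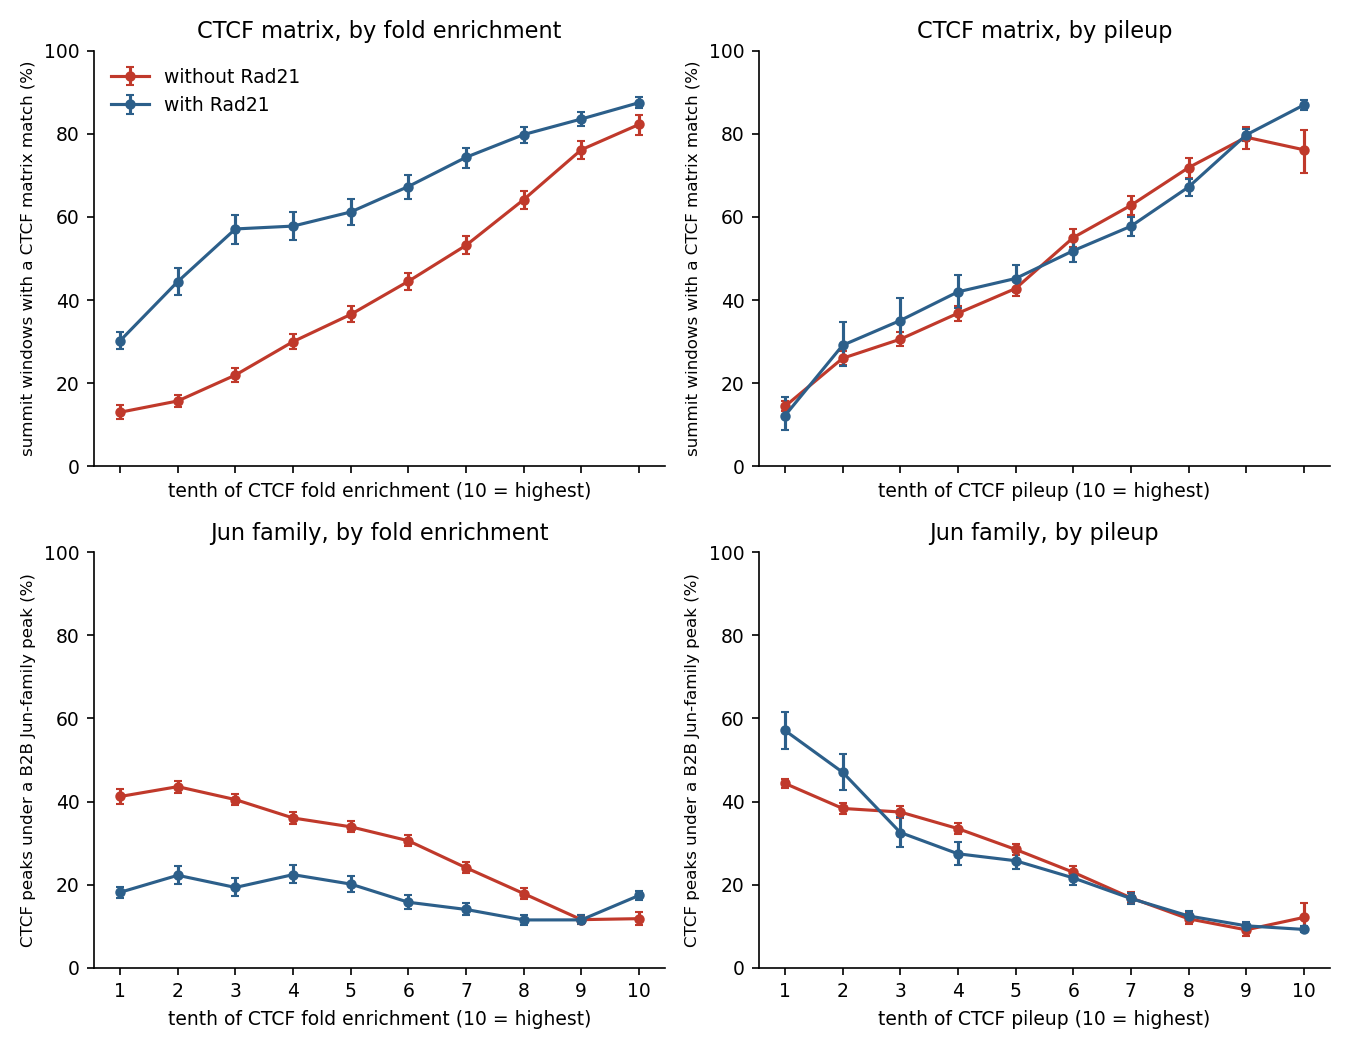
Share of summit windows with a CTCF matrix match (upper panels, %) and share of CTCF peaks under a B2B Jun-family peak (lower panels, %) in deciles of CTCF fold enrichment (left) or pileup (right), for peaks without Rad21 (red) and with Rad21 (blue). Bars are 95% Wilson intervals. Matrix matches are on the odd autosomes, X and Y, and Jun-family shares are over all chromosomes. Matches were found at 14.4% without and 12.2% with Rad21 in the weakest decile of pileup and at 76.2% and 86.9% in the strongest, and Jun-family peaks at 44.4% and 57.1% in the weakest.

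Among the 10 strongest members with the consensus, the CTCF fold enrichment ran from 63.3 to 74.1. The first, with 185 reads over a background of 1.51 reads, lay in an intron of HHAT, which encodes the acyltransferase of Hedgehog proteins. It lay 4.8 kb from the nearest coding start and 122 bp from the nearest annotated start of any gene type. It was the only one of the 10 with pol II and all 3 Jun proteins in B2B but no H3K4me3. The second, at 72.5, lay in an intron of a noncoding gene 12.7 kb from RUSC2, and the third, at 70.1, lay 26.9 kb from TMEM40 and 2035 bp from the nearest Rad21 peak. The others lay inside STARD3NL (68.5), in an intron of RNF216 (67.7), at a coding model known by its identifier ENSG00000281039 (66.9), 25.4 kb from the start of FBXO48 (66.1), 63 kb from C7orf33 (65.2), 0.8 kb from the start of the histone gene H4C2 (64.9) and 25.8 kb from ERC2 (63.3). Of these 10, 6 overlapped none of the other 7 B2B lists. The member near H4C2 overlapped 6 of them.

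Without the consensus, the 5 strongest members had fold enrichments from 70.1 to 88.4. The strongest of all members, at 88.4 and 221 reads, lay 123.9 kb from the nearest coding gene, 140.1 kb from the start of MINAR1, and had a matrix match. So did the members near TRIM40 (71.3), in an intron of DNAJB6 (70.2), which encodes a co-chaperone, and near CHCHD7 (70.1). The member at the start of ZNF350 (76.0), a zinc finger gene, had neither the consensus nor a match, and overlapped pol II and H3K4me3 in both lines.

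To ask which chromatin the members sat in, their overlap with the other B2B lists was counted on chromosomes 1 to 12, where 26122 members and 16473 sites with Rad21 lay. Each share is given beside the share over all CTCF peaks there. Pol II overlapped 14.6% of the members and 21.3% of the sites with Rad21, with 17.2% over all. H3K4me3 overlapped 6.73% and 18.5%, with 11.3% over all. H3K27ac, which marks active enhancers and promoters, overlapped 9.05% and 25.7%, with 15.5% over all. Med1 overlapped 10.4% and 29.0%, with 17.6% over all. Any of these 4 lists overlapped 21.9% of the members (95% CI 21.4 to 22.4%) and 38.4% of the sites with Rad21 (37.7 to 39.2%), with 28.3% over all. The difference was -16.5 points (95% CI -17.4 to -15.6). It kept its sign within deciles of fold enrichment, at -25.5 points, and within deciles of pileup, at -13.5 points.

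The Jun family went the other way. Jun overlapped 32.2% of the members and 16.9% of the sites with Rad21, with 26.3% over all CTCF peaks. JunB overlapped 11.1% and 6.70%, with 9.41% over all. JunD overlapped 8.16% and 4.57%, with 6.77% over all. Any Jun protein overlapped 32.5% of the members (95% CI 32.0 to 33.1%) and 17.3% of the sites with Rad21 (16.7 to 17.9%), with 26.6% over all, a difference of 15.3 points (95% CI 14.4 to 16.1). Within deciles of fold enrichment it was 13.4 points. Within deciles of pileup, weighted by the members, it was -1.48 points, so the weighted difference was small and of the opposite sign. Single deciles went both ways. The shares in single deciles were counted over all chromosomes. In the weakest decile of pileup, Jun-family peaks lay over 44.4% of the members and 57.1% of the sites with Rad21, of which only 471 fell there. In decile 4 they lay over 33.5% and 27.4%, and in the strongest over 12.1% and 9.24%.

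The same B2B sites were then scored with the A549 lists. The active lists again overlapped fewer members, with 12.7% and 31.6% for pol II (20% over all), 8.72% and 33.8% for H3K4me3 (18.4% over all), 7.37% and 32.8% for H3K27ac (17.2% over all) and 6.52% and 21.2% for Med1 (12.2% over all). Any of them overlapped 17.1% of the members and 41.9% of the sites with Rad21, with 26.7% over all, a difference of -24.8 points (95% CI -25.7 to -23.9). Within deciles of CTCF fold enrichment the difference was -33.7 points, and within deciles of pileup it was -8.72 points. Any A549 Jun protein overlapped 16.8% of the members (95% CI 16.3 to 17.2%) and 19.97% of the sites with Rad21 (19.4 to 20.6%), with 18% over all. The difference of -3.21 points (95% CI -3.97 to -2.45) was opposite in sign to that of the B2B lists. Within deciles of CTCF fold enrichment it was -6.87 points and still opposite in sign. Within deciles of pileup it was -3.55 points, and the B2B difference was -1.48 points, so the lines then had the same sign. JunB overlapped 12.6% and 13.8%, with 13.1% over all, Jun 15.0% and 16.4%, with 15.5% over all, and JunD 4.03% and 6.65%, with 5.04% over all.

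**Figure D2:**
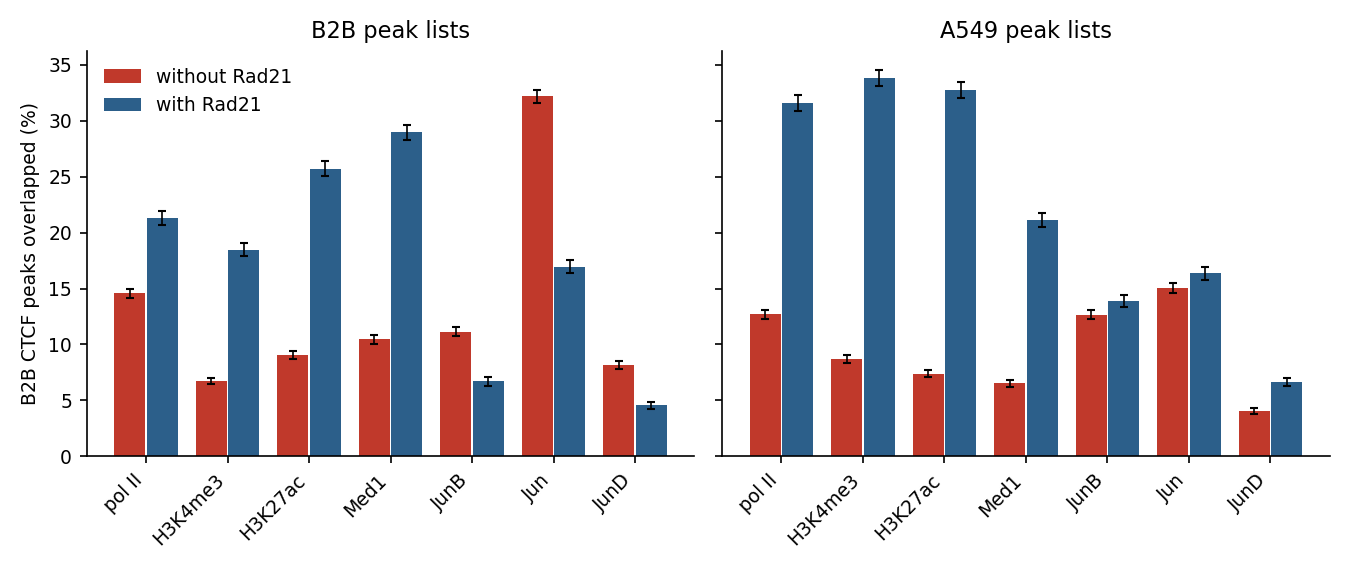
Share (%) of B2B CTCF peaks on chromosomes 1 to 12 without Rad21 (red) and with Rad21 (blue) that overlapped each of 7 peak lists of B2B (left) or A549 (right), with 95% Wilson intervals. The Jun bars of B2B, at 32.2% and 16.9%, go the other way from the pol II, H3K4me3, H3K27ac and Med1 bars, and the A549 Jun bars, at 15.0% and 16.4%, do not. The bars take all peaks whatever their pileup.

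Put into exclusive states, 60.8% of the members (95% CI 60.2 to 61.4%) overlapped none of the 7 other B2B lists, as did 55.6% of the sites with Rad21 and 58.8% of all CTCF peaks. These 15872 members had a median fold enrichment of 9.16, and 57.1% held a CTCF matrix match. A Jun-family peak alone was found at 17.3% (5.95% with Rad21, 12.9% over all), and there the median fold enrichment was 6.37 and 6.71% held a match. H3K27ac or Med1 without H3K4me3 was found at 10.7% (17.98% with Rad21, 13.5% over all), with matches at 9.58%. H3K4me3 was found at 6.73% (18.5% with Rad21, 11.3% over all), with matches at 11.2%. Pol II without these marks was found at 4.51% (1.95% with Rad21, 3.52% over all), with matches at 3.74%. The CTCF motif thus lay mostly at the members that no other list touched. Sites with Rad21 held more matches in every state, at 84.5% with none of the lists and 41.8% with H3K4me3. Their median pileup was also higher in every state. It was 86 against 29 reads with none of the lists and 100 against 27 reads with H3K4me3. These shares therefore do not compare peaks of like read number.

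**Figure D3:**
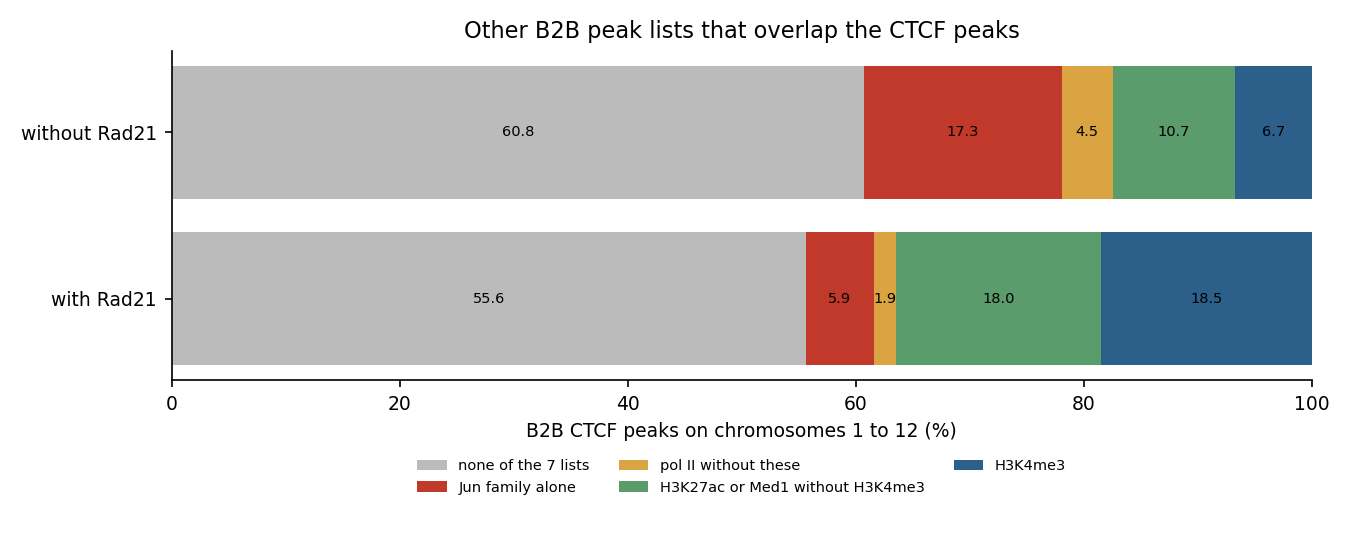
Share (%) of the B2B CTCF peaks on chromosomes 1 to 12 in 5 exclusive states of the other B2B lists, for peaks without Rad21 (upper bar) and with Rad21 (lower bar). No other list touched 60.8% and 55.6%, and a Jun-family peak alone was found at 17.3% and 5.95%.

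The Jun lists cover all chromosomes, so members with and without a Jun-family peak were compared over the whole set. A JunB, Jun or JunD peak of B2B overlapped 11621 members, of which 7293 had 1 of the 3 proteins, 1955 had 2 and 2373 had all 3. The CTCF matrix matched 5.76% of the members with a Jun-family peak (95% CI 5.20 to 6.37%) and 54.9% of those without (54.0 to 55.7%), a difference of -49.1 points (95% CI -50.1 to -48.1). The sites with Rad21 split likewise, with matches at 31.8% and 73.95%. Within deciles of pileup the difference was -40.7 points. The AP-1 motif TGANTCA was found at 24.3% of the members with a Jun-family peak (95% CI 23.5 to 25.1%) and at 2.74% of those without (2.55 to 2.95%). Over all CTCF peaks the AP-1 share was 7.24%, and windows 2 kb from the members held it at 3.05%. The share with the AP-1 motif was 16.1% at members with 1 Jun protein, 32.7% with 2 and 42.6% with all 3.

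Other motifs differed by fewer percentage points. GGAATGT, the motif of the TEAD factors, which often bind enhancers beside AP-1, was found at 6.44% of the members with a Jun-family peak and 2.33% of those without, with 1.42% in windows 2 kb away. The promoter motif GGGGCGG of the SP and KLF factors was found at 1.31% of all members and 6.28% of the sites with Rad21. The ETS motif CCGGAAG was found at 0.728% and 1.84%, the NRF1 motif of 10 positions at 0.0403% and 0.566%, and the YY1 motif AAGATGGC at 1.31% and 2.21%.

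**Figure D4:**
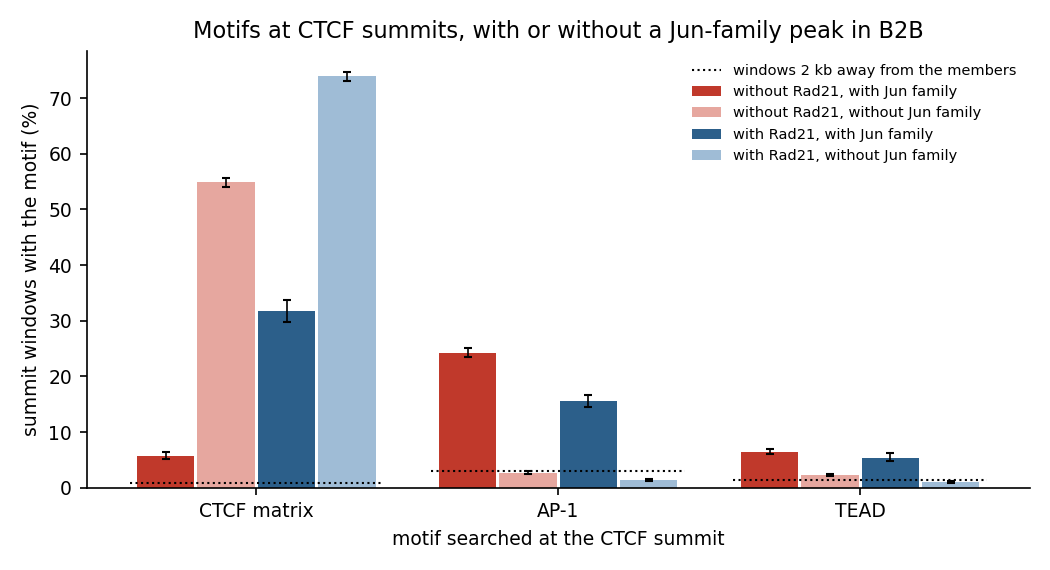
Share (%) of windows reaching 50 bp to each side of CTCF summits with a CTCF matrix match, the AP-1 motif or the TEAD motif, for peaks without Rad21 (reds) and with Rad21 (blues), each with or without a B2B Jun-family peak. Bars carry 95% Wilson intervals and dotted lines give windows 2 kb from the members; members with a Jun-family peak had matches at 5.76% and those without at 54.9%.

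Members with a Jun-family peak were weaker CTCF peaks, with a median fold enrichment of 6.67 and 21 reads, against 8.76 and 30 reads without one. Of the 11493 members that overlapped a Jun peak, the CTCF summit lay within 50 bp of the Jun summit at 47.0% (95% CI 46.1 to 48.0%), with a median distance of 54 bp. At the 3891 sites with Rad21 that overlapped one, the share was 39.1% (37.5 to 40.6%) and the median distance 67 bp. The overlap went with the strength of the Jun peak. Of the B2B Jun peaks in the lowest quintile of Jun fold enrichment, 12.4% (95% CI 11.7 to 13.1%) overlapped a member, and in the highest quintile 48.3% (47.3 to 49.4%) did. For the sites with Rad21 the same shares were 9.47% and 13.2%, but the share did not rise steadily and was 5.13% in quintile 2.

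**Figure D5:**
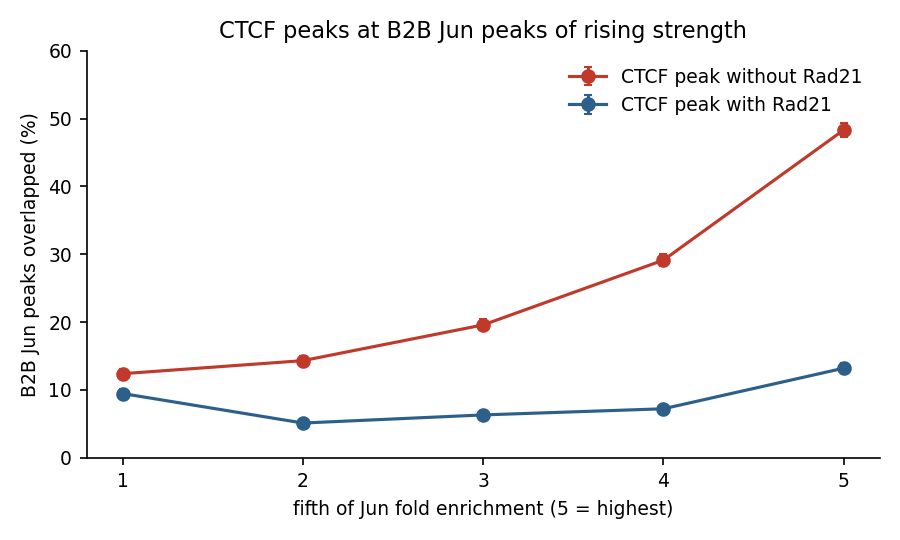
Share (%) of B2B Jun peaks that overlapped a CTCF peak without Rad21 (red) or with Rad21 (blue), in quintiles of Jun fold enrichment, with 95% Wilson intervals. The share with a member goes from 12.4% in the lowest quintile to 48.3% in the highest.

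The 4 members shown above for their Jun peaks had Jun fold enrichments from 79.6 to 85.0. At 3 of them the CTCF peak was weak, with 15 reads in introns of HPSE2, which encodes a heparanase-like protein, and PCCA, a subunit of propionyl-CoA carboxylase, and 24 reads near DBNDD1. The member in NFIB, a transcription factor gene, had 109 reads and a CTCF fold enrichment of 43.8. All 4 overlapped JunB, Jun and JunD in B2B, and all 4 overlapped Jun in A549.

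Across the lines, 5299 of the 11621 members with a B2B Jun-family peak also had one in A549, or 45.6% (95% CI 44.7 to 46.5%). Of the 3959 sites with Rad21 that had one in B2B, 58.9% (57.3 to 60.4%) also had one in A549. The AP-1 motif was found at 34.6% of the 5299 members with a Jun-family peak in both lines. It was found at 15.6% of the 6322 members with one in B2B only. A Jun-family peak in A549 only was found at 860 members, or 2.31%, and 34.4% of those held a CTCF match. It was found at 10.6% of the sites with Rad21. Of all members with a Jun-family peak in A549, 86.0% had one in B2B as well. Of the sites with Rad21 that had one in A549, the share was 47.9%.

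To ask where in the genome the members lay, each was placed by GENCODE annotation. Within 1 kb of a transcription start site lay 13.9% of the members (95% CI 13.5 to 14.2%) and 33.5% of the sites with Rad21 (32.9 to 34.1%), a difference of -19.7 points (95% CI -20.4 to -19.0). It was -25.3 points within deciles of fold enrichment and -7.32 points within deciles of pileup. A further 4.59% of the members lay in exons, 52.1% in introns and 29.4% between genes. The matrix matched 35.9% of the members near start sites and 45.1% of those between genes. The windows of the members had a median GC content of 50.5% and a mean of 1.58 CpG, against 57.4% and 4.33 at the sites with Rad21. By chromosome, among the autosomes, the share of CTCF peaks without Rad21 was lowest on chromosome 19, at 50.4%, and highest on chromosome 18, at 68.2%.

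A member lay within 1 kb of a start site of 2822 of 20033 protein-coding genes, or 14.1%, and a site with Rad21 near 5770, or 28.8%. Of these genes 968 had both. Starts of every annotated transcript of a gene were counted, also those inside the gene. A member and a site with Rad21 therefore need not share a start. Gene lists were read against these shares and were not tested. Of the 53 clustered protocadherin genes, cell surface proteins whose promoter choice depends on CTCF and cohesin, 20 had a member, or 37.7%, and 12 had a site with Rad21, or 22.6%. The strongest members there lay at PCDHB9, with a CTCF fold enrichment of 21.8 and 123 reads, PCDHB5 (20.2, 90 reads), PCDHB7 (17.8, 70 reads) and PCDHGB3 (17.3, 83 reads). The first 3 had a CTCF match, and the nearest Rad21 peak to each of the 4 lay 10088 to 41143 bp away.

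Of 77 cytosolic ribosomal protein genes, 19 had a member, or 24.7%, and 31 had a site with Rad21, or 40.3%. The strongest members lay at RPL3 (30.1), RPL32 (28.6), RPL36A (25.1) and RPS27 (20.4). RPL3 and RPL36A had a CTCF match, and RPL32 and RPS27 had none. Of 249 zinc finger genes on chromosome 19, 28 had a member, or 11.2%, and 46 had a site with Rad21, or 18.5%. The strongest members lay at ZNF350 (76.0), ZNF585A (47.5), ZNF175 (43.2) and ZNF221 (23.8). All 4 overlapped H3K4me3, and ZNF221 was the only one of the 4 with a CTCF match. Of 39 HOX genes, the body axis regulators, 5 had a member, or 12.8%, and 8 had a site with Rad21, or 20.5%. The zinc finger and HOX lists both lay below the 14.1% and 28.8% of all protein-coding genes. The strongest HOX member lay at HOXA13, with a fold enrichment of 10.6 and 96 reads. HOXB3 and HOXB6 shared a member at 4.47, and HOXC4 had one at 4.003.

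Of 22 imprinted genes 3 had a member, or 13.6%, and 7 had a site with Rad21, or 31.8%. Both shares were near the 14.1% and 28.8% of all protein-coding genes. The 3 with a member were GRB10 (18.7), which encodes a growth receptor adaptor, SGCE (6.20), a sarcoglycan, and IGF2 (3.44), the fetal growth factor. The member at SGCE held the AP-1 motif and overlapped all 3 Jun proteins. None of the 7 Jun and Fos genes had a member, and 3 had a site with Rad21. Of the 19 genes of CTCF and cohesin themselves, 7 had a member, or 36.8%, and 14 had a site with Rad21, or 73.7%. Those 7 included RAD21 (9.56), the cohesin subunit gene STAG2 (6.17), the loader gene NIPBL (6.004) and CTCF (5.003). The members at RAD21, NIPBL and CTCF overlapped none of the other B2B lists. All 4 genes also had a separate site with Rad21 within 1 kb of a start site, which need not be the same start.

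Among all genes with a member within 1 kb of a start, the 10 with the strongest were ZNF350 (76.0), H4C2 (64.9), TSC1 (60.4), HPX (57.3), KIF5A (56.8), RAB7A (56.1), OS9 (53), CEP112 (52.3), RAPGEF2 (50.97) and ERMN (48.98), with the CTCF fold enrichment in parentheses. At TSC1, HPX, KIF5A, RAB7A, CEP112 and RAPGEF2 the start was that of a transcript beginning inside the gene, not the outermost start. The CEP112 member, for example, had its summit at 65750800, in a minus-strand gene with its outer end at 66192133. TSC1 encodes a subunit of the complex that restrains mTOR, HPX the heme carrier hemopexin, KIF5A a kinesin motor and RAB7A a GTPase of late endosomes. Only H4C2, TSC1, RAB7A and ERMN of these 10 had the CTCF consensus, and HPX and KIF5A had a matrix match without it. ZNF350, OS9, CEP112 and RAPGEF2 had neither. ZNF350, H4C2, OS9 and RAPGEF2 overlapped H3K4me3 in B2B, and HPX, KIF5A, RAB7A and ERMN overlapped none of the other B2B lists. KIF5A, RAB7A, CEP112 and RAPGEF2 had a separate site with Rad21 near a start as well, which need not be the same start.

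At the other end, some members overlapped all 7 of the other B2B lists. The B2B list of Med1 ended before the last chromosome, so only members on chromosomes it covers could do so. Among those with the highest CTCF fold enrichment, 4 are named here. The first lay 0.3 kb from the start of ANKRD1 (31.5), a cardiac and muscle ankyrin gene. Another lay in an intron of the growth factor receptor gene EGFR (27.8). The others lay 9 kb from TEX48 (23.1) and at the start of PCID2 (22.1). None of these 4 had a CTCF match or the AP-1 motif in the window. The members at ANKRD1 and EGFR overlapped all 7 lists of A549 as well, and the member near TEX48 overlapped only Jun there. In the counterpart of the members, 14593 of 38888 Rad21 peaks, or 37.5%, had no CTCF peak within 500 bp. On chromosomes 1 to 12, 6.88% of those overlapped a Jun-family peak and 80.2% overlapped pol II, H3K4me3, H3K27ac or Med1. The same shares over all Rad21 peaks were not counted, so these values show no trait particular to Rad21 peaks without CTCF. They also come from another list than the shares of the members.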

How the data were processed

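The 36 samples in the labels fall into 18 groups by line and antibody, of which 16 have a peak list and 2 are input chromatin. Per the study's methods, the authors aligned reads to hg38 with Bowtie2 2.4.4, removed duplicates with their own code, merged the 2 replicates of a group and called peaks with MACS2 2.2.7.1. SAMtools 1.13 was named for CPM scaling. The options and the control of the caller are not given in the sources used here, and the read depth is unknown. The deposited score was 10 times the −log10 q, rounded down. The fold enrichment was deposited by the authors as a ratio of pileup to local background at the summit. The −log10 p was deposited by the authors too. The lowest score was 20, a −log10 q of 2, and the score served as the q-value for thresholds.

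From these, intervals were compared in Python 3.11.15 with NumPy 2.4.6, pandas 2.3.3 and SciPy 1.17.1, with an overlap of at least 1 bp. Positions were 1-based, and no peak reached past the end of its hg38 chromosome. Genes came from GENCODE release 44. Sequence was read from hg38, indexed with samtools 1.23.1. Pileup and background were solved on the assumption that the fold enrichment was (pileup + 1)/(background + 1) and the p-value the upper Poisson tail. The CTCF matrix started from windows with the consensus and was refined 3 times. Plots were drawn with Matplotlib 3.10.9. The functions were tested on simulated data.

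Named members and genes were the 10 strongest with the consensus, the 5 strongest without it, the 5 with the most other lists (1 of which is not reported here), the 10 genes with the strongest member within 1 kb of a start, and up to 4 genes per list. The members and the lists were chosen with earlier results of these data known, and 4 members with strong Jun peaks were chosen after their values were seen. The alternatives were other Rad21 distances, a −log10 q of at least 5, other windows, motifs, start sites and overlaps, all chromosomes, and deciles of fold enrichment. The learned matrices, the deciles of pileup and the removal of sites under Jun-family peaks were added after the data were seen.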

Additional observations from a re-analysis of the deposited data

Results flagged for a closer look

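Peaks outside the chromosomes used were not part of any comparison. The CTCF list held 20 peaks on the mitochondrial genome. Their median fold enrichment was 2.001, and the Rad21 list held 0 peaks there, so that every CTCF peak on it had no Rad21 peak within 500 bp. The unplaced sequences of the assembly held 123 CTCF and 61 Rad21 peaks, and 73 of these CTCF peaks had no Rad21 peak within 500 bp, with a median fold enrichment of 6.77. These counts come from 1 pooled list for each protein, and no control list was used here.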

How the results depend on the processing

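No paired analysis was possible because each list is a pool of merged replicates and carries no replicate number, and no replicate was left out for the same reason. Of 75 alternative values of the 8 main results, 33 stayed within the interval of the reported value, or within 1.5 times for the number of members, 40 moved beyond it with the same direction, and 2 reversed. The causes were not tested. Differences are in percentage points, members minus sites with Rad21. Both reversals came from deciles of CTCF pileup, which gave 0.576 for the CTCF motif and -1.48 for the B2B Jun family, and also gave -7.32 for start sites and -13.5 and -8.72 for active marks in B2B and A549. Deciles of fold enrichment gave -14.9 for the motif, -25.3 for start sites, -25.5 and -33.7 for active marks in B2B and A549, and 13.4 and -6.87 for the Jun family. With no overlap as the rule (0 bp), the fold ratio was 0.574, the motif -18.8, start sites -16.2, active marks -11.4 and -21.4, and the Jun family 17.1 and -2.33. With 2 kb the same values were 0.714, -13.6, -20.7, -19.5 and -26.5, and the B2B Jun family 13.7. With both lists at a −log10 q of at least 5, the fold ratio was 0.674 and A549 active marks -25.8. Without sites under a Jun-family peak, the fold ratio was 0.685, the motif -13.2, start sites -21.2 and B2B active marks -22.8. The motif difference was -14.9 in windows of 25 bp, -7.75 with the stricter 12-position core, -27.0 with the learned matrix and -22.6 with that learned on members. Start sites gave -18.4 within 3 kb and -17.8 for protein-coding genes. With the CTCF summit inside the other peak, active marks gave -14.7 and -22.2 and the A549 Jun family -2.10. Within 500 bp, B2B active marks gave -15.2 and the A549 Jun family -4.998. All chromosomes gave -26.2 for A549 active marks. Read depth was unknown, so an absent Rad21 peak cannot be told from one under the threshold.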
